A study of Mus musculus with 24 samples.

Results

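The Gpr genes are mainly G protein-coupled receptors that were numbered as they were cloned, most of them before a ligand was known, and many are orphans still. Some genes with such a symbol are intracellular or atypical members, and Gpr137b-ps is a transcribed pseudogene. A receptor of this kind spans the membrane, and on activation it hands its signal to a trimeric G protein, which raises or lowers cyclic AMP, moves calcium or opens channels. G protein-coupled receptor kinases and arrestins then switch the receptor off. In the suprachiasmatic nucleus (SCN), the brain's central daily clock, cyclic AMP is one of the signals that keep its neurons in step. Gpr176 is known there as a Gz-linked receptor that holds cyclic AMP down, and Gpr19 as an orphan receptor with a part in the behavioural rhythm.

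The members were all genes whose symbol is Gpr followed by a number. Among probe sets assigned to a single symbol, the one of highest mean stood for its gene, which gave 71 of 19938 genes. The tissue was SCN of C57/BL6 mice that had been kept in a light-dark schedule and then moved to constant darkness; the labels give no age, sex or genotype beyond the strain. Tissue was taken at steps of 2 h over 24 circadian times (CT), the earliest CT 18 and the last CT 64, and 1 array per step was hybridised with equal parts of RNA from 3 animals. The 12 arrays up to CT 40 are called the first cycle here and the 12 from CT 42 on the second, and both sample the same times of day. No time has a replicate, so every error is the scatter of single pooled arrays around a fitted curve, and the number of arrays limits the precision. In bulk tissue, fewer cells of a type and less RNA per cell cannot be told apart.

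All values are log2 probe set intensities, and levels of different probe sets were not ranked against each other. All 12 markers of SCN neurons that were listed (Avp and Vip among them) were measured and lay above array background. The arrays at CT 40, CT 62 and CT 64 stood apart from the other 21. Their background probe sets lay 0.34, 0.19 and 0.16 above the series mean and their values were spread over a narrower range. The calls and the counts of called genes are also given without these 3, but other amplitudes and peak times are not all given so.

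Array background was read from 1190 olfactory and vomeronasal receptor genes, which are known from the sensory neurons of the nose. A gene was called above background when its mean over 24 arrays passed the 95th percentile of the means of those genes, which was 5.65. Of the 71 Gpr genes 51 did so. That is 71.8%, beside 71.6% of the 18748 genes outside the olfactory and vomeronasal families. Of the 51, 42 were above the limit of each single array on all 24 arrays. The other 9 passed on some arrays, among them Gpr182 (16 arrays), Gpr39 (20 arrays) and Gpr146 (23 arrays). At the 99th percentile of the same background genes, 6.45, 35 Gpr genes stayed above.

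The 4 Gpr genes just above the limit were Gpr34, Gpr61, Gpr132 and Gpr161. Gpr34, a lysophosphatidylserine receptor of microglia, had a mean of 5.66 and passed the limit of the single array on 12 of 24 arrays. Gpr61 had a mean of 5.80 (19 arrays), Gpr132 of 5.89 (22 arrays) and Gpr161, a receptor of primary cilia, of 5.95 (23 arrays). The 4 just below were Gpr1 at 5.55 (4 arrays), Gpr63 at 5.47 (2 arrays), Gpr142 at 5.45 (2 arrays) and Gpr50 at 5.35 (6 arrays). The remaining 16 below the limit were Gpr15, Gpr33, Gpr55, Gpr65, Gpr82, Gpr84, Gpr119, Gpr141, Gpr141b, Gpr143, Gpr149, Gpr151, Gpr152, Gpr157, Gpr160 and Gpr174. Several of these, such as Gpr15, Gpr65, Gpr82, Gpr84 and Gpr174, are known from immune cells. Of the 14 Gpr genes listed as immune receptors, however, 7 lay above background, among them Gpr18, Gpr171 and Gpr183. Of all 71 Gpr genes, 14 passed on 0 arrays, and these can only be said to be not above background here.

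**Figure D1:**
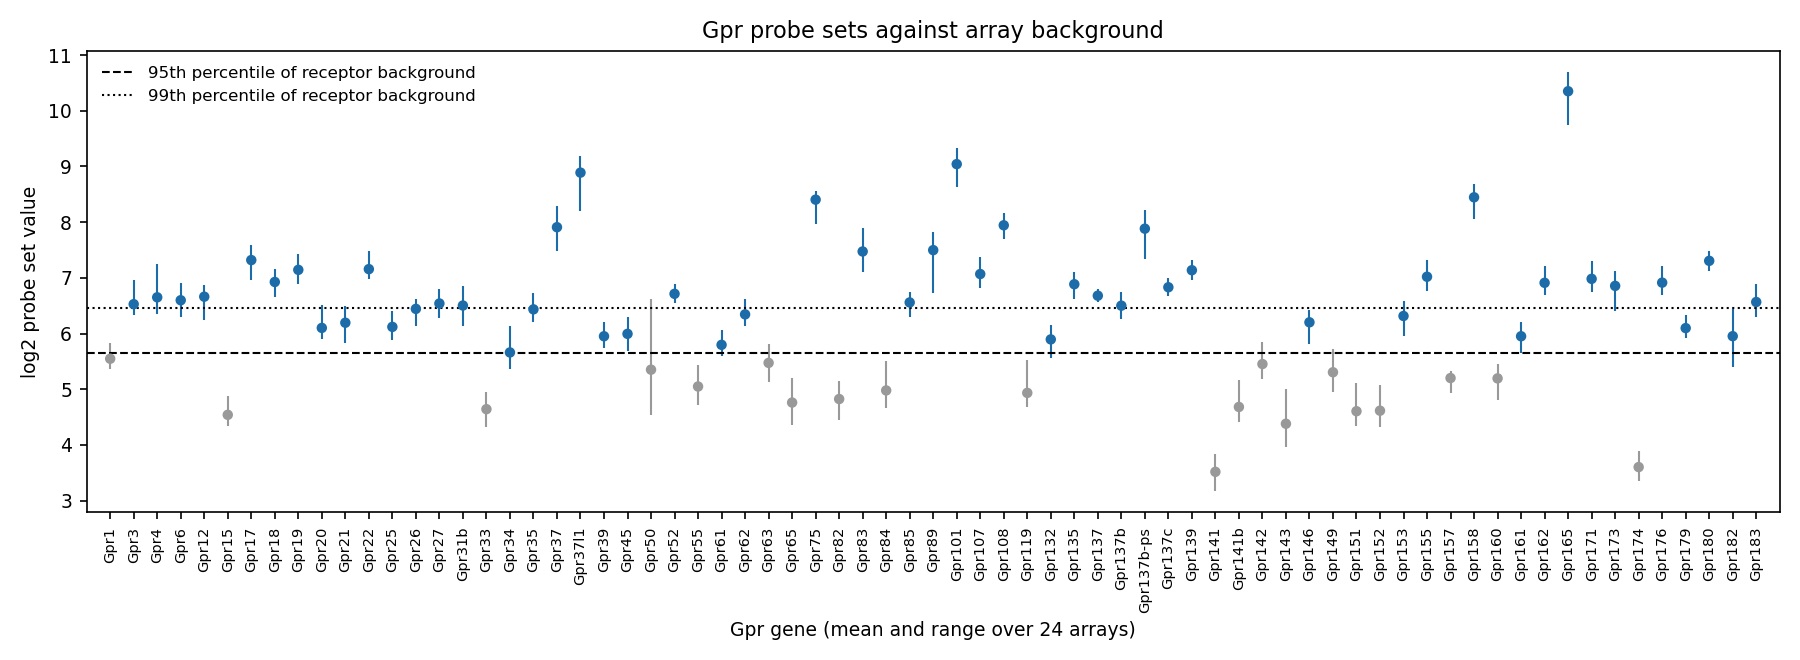
Mean (point) and lowest to highest value over 24 arrays (line) of each of the 71 Gpr probe sets, in log2 units, in numerical order of the gene names. Blue marks the 51 genes with a mean above the dashed line at 5.65, the 95th percentile of the background genes; the dotted line is the 99th percentile at 6.45, and the long line of Gpr50 runs from 4.54 to 6.62.

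Gpr50, the melatonin-related receptor known from the tanycytes that line the ventricle beside the hypothalamus, varied most between arrays. Its standard deviation was 0.489, and the next highest was 0.311 for Gpr182. In the first cycle Gpr50 ran from 4.54 (CT 40) through a median of 5.32 to 6.10 (CT 22), and in the second from 4.54 (CT 44) through 5.32 to 6.62 (CT 64). It passed the array's own limit at CT 22, CT 36, CT 42, CT 54, CT 58 and CT 64. The high arrays had no common circadian time: values at the same circadian time differed between the cycles by a median of 0.552 and by up to 2.08.

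The question for the series is which transcripts follow a daily course. A cosine of 24 h was fitted to each of the 13956 genes above a filter on low means, with limma's moderated F test and Benjamini-Hochberg adjustment over all of them, and a gene was called at an adjusted p under 0.05. The amplitude runs from mean to peak in log2 units, with its standard error over 24 arrays, and peaks are in hours of circadian time. Of the 71 Gpr genes 52 were tested, the 51 above background and Gpr1. Only 3 were called: Gpr75, Gpr158 and Gpr4. That is 5.77% of the tested Gpr genes, and over all tested genes 7.65% were called. At an unadjusted p under 0.05 there were 14 Gpr genes, 26.9%, beside 27.5% of all tested genes. The median amplitude was 0.0640 in Gpr genes and 0.0694 in all tested genes, so both the share of rhythmic genes and the usual size were close to the background.

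**Figure D2:**
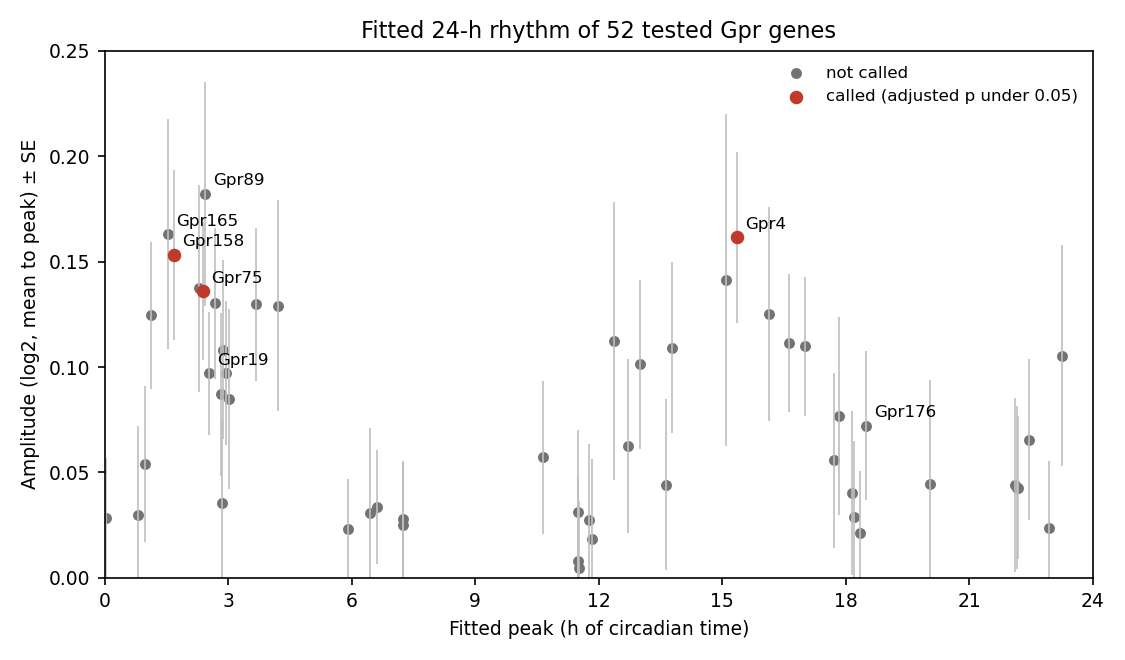
Fitted 24-h amplitude (log2, mean to peak, with its standard error) against the fitted peak in hours of circadian time for the 52 tested Gpr genes. Red marks the 3 called genes; Gpr75 and Gpr158 peaked near 2 h and Gpr4 near 15 h, and the amplitudes ran from 0.00469 to 0.182.

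Gpr176 showed no rhythm that passed the test. Its 12 values of the first cycle ran from 6.76 (CT 30) through a median of 6.92 to 7.21 (CT 38), and those of the second from 6.69 (CT 54) through 6.88 to 7.19 (CT 46). The ranges of the cycles overlapped almost wholly, and the highest value of each cycle fell at a different circadian time. The fitted amplitude was 0.0722 ± 0.035 with a peak at 18.5 ± 1.9 h (adjusted p = 0.317, limma). A permutation of the 24 times gave p = 0.146 (100000 permutations, upper tail of the F statistic). The upper 95% limit of the amplitude was 0.145, so a daily change from trough to peak of up to 1.22-fold lies within the error. Fitted to the cycles separately, the peak lay at 15.5 h in the first and 20.1 h in the second, and the difference in rhythm did not pass its test (unadjusted p = 0.350). With CT 40, CT 62 and CT 64 left out, the amplitude was 0.113 with an adjusted p of 0.116. The means of both cycles at one circadian time were lowest at 6 h (6.73) and highest at 22 h (7.07). The cycles differed at one time by a median of 0.0587 and by up to 0.374, and their 12 values correlated with r = 0.321.

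Gpr19 lay just outside the threshold. It ran from 6.89 (CT 18) through 7.11 to 7.43 (CT 26) in the first cycle and from 7.01 (CT 60) through 7.15 to 7.31 (CT 52) in the second. The highest array of each cycle lay early in the subjective day, at circadian times 2 and 4. The cycles did not match closely: at circadian time 2 the value was 7.43 in the first cycle and 7.09 in the second, and values at one time differed between the cycles by a median of 0.118. The mean of both cycles was highest at 4 h (7.27) and lowest at 18 h (7.01). The amplitude was 0.0970 ± 0.029 with a peak at 2.53 ± 1.15 h. The adjusted p was 0.0771 over all genes in limma, and the permutation of the 24 times gave p = 0.00465 for this gene by itself. The amplitude of the first cycle was 0.147 and that of the second 0.0477, but the change in rhythm did not pass its own test (unadjusted p = 0.252). With CT 40, CT 62 and CT 64 left out, Gpr19 was called, with an amplitude of 0.125 (adjusted p = 0.0490). The fitted peak of Gpr19 thus lay early in the subjective day and that of Gpr176 in the subjective night, but neither fit passed the threshold with all 24 arrays.

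**Figure D3:**
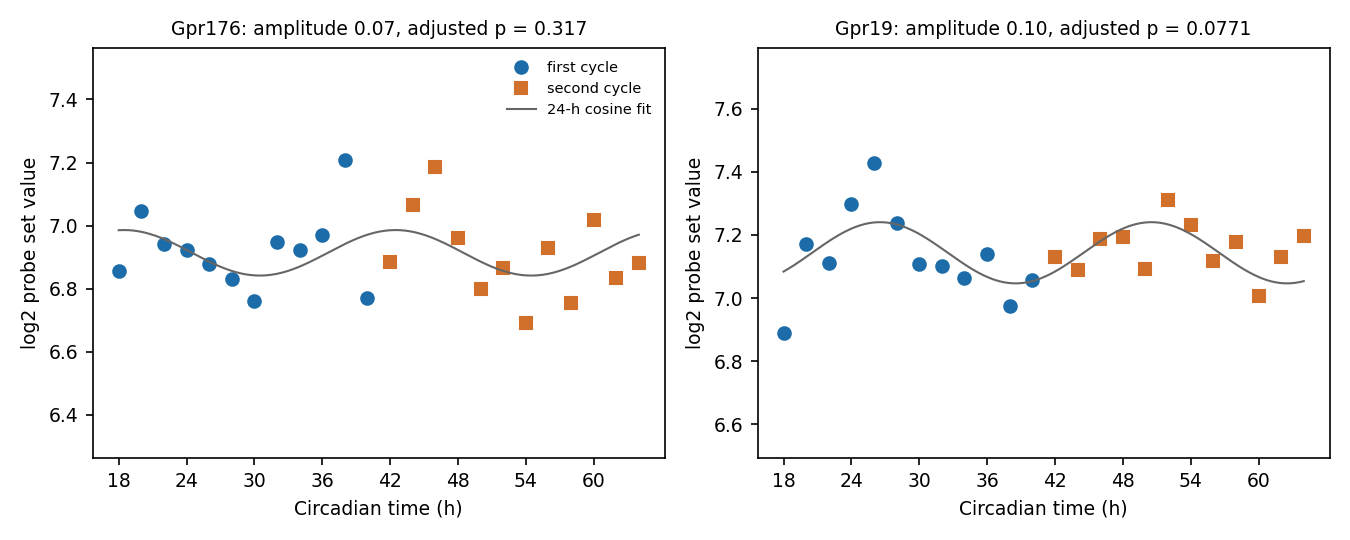
Log2 values of Gpr176 and Gpr19 on each of the 24 arrays against circadian time, with first-cycle arrays as circles, second-cycle arrays as squares and the fitted 24-h cosine as a line. Gpr176 is highest at CT 38 and CT 46, Gpr19 at CT 26 and CT 52.

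The genes whose values over the 24 arrays were most like those of Gpr176, among 13955 other tested genes, were Dgkh (Pearson r = 0.775), Dnajc28 (0.737), Vav3 (0.736), Cdc14a (0.706) and Map6 (0.696). Those most like Gpr19 were Marchf4 (0.718), Crhr1 (0.699), Dsn1 (0.684), Nt5e (0.683) and Acrbp (0.681). None of these 10 genes was called rhythmic. The points share arrays and their background, and the genes were picked as the highest of many correlations, so the values describe likeness only.

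Promoter sequence was taken from RefSeq on the build GRCm38.p6, where 53 of the 71 Gpr genes had at least 1 window, 69 windows in all. The 250 bases before each start were searched on both strands for short motifs known from clock gene promoters. The GC box, which is not a clock element, was searched as well. Gpr176 and Gpr19 are shown because the question of a daily pattern was put to them, here as 30-base stretches around the matches, with matches in capitals. For Gpr176 (chr2:118373467-118373496, minus strand) the capitals mark a GC box 65 bases before the first listed start. For Gpr19 the first stretch (chr6:134897926-134897955, minus strand) ends at the first listed start and holds 3 overlapping or adjoining GC boxes. The second stretch (chr6:134887791-134887820, minus strand) holds a half-site of the cyclic AMP response element, 22 bases before the start numbered 4 and read on the opposite strand as CGTCA.
Gpr176: tggccgcgctgcCCGCCCcctccccccccc
Gpr19, start 1: ggactCCGCCCCCGCCCCGCCCgtggctgt
Gpr19, start 4: tgaaccttcacagCGTCAtcttctctctct

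The E-box CACGTG, bound by CLOCK and BMAL1, was found in 1 Gpr gene, Gpr63, and in 6.02% of all 32851 windows. The full cyclic AMP response element TGACGTCA was found in Gpr6 and in 1.55% of all windows. Its half-site TGACG, which the full element contains, was found in 14 Gpr genes, Gpr19 among them. By windows it was in 15 of the 69 of Gpr genes and in 17.8% of all windows. The D-box TTATGTAA was found in Gpr174 (0.819% of windows), and the ROR element TAGGTCA in 0 Gpr genes (2.23%). The GC box GGGCGG, bound by SP factors and not a clock element, was found in 21 Gpr genes. By windows it was in 23 of the 69 of Gpr genes and in 32.7% of all windows. These are matches of letters, not sites shown to be bound.

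Of the 3 called genes, Gpr75 and Gpr158 had their fitted peaks early in the subjective day. Gpr75 is a receptor of brain linked to body weight. Its values ran from 7.97 (CT 40) through 8.43 to 8.51 (CT 26) in the first cycle and from 8.22 (CT 62) through 8.48 to 8.56 (CT 56) in the second. The lowest array of each cycle was thus an array with high background, at circadian times 16 and 14. The amplitude was 0.136 ± 0.033, a change of 1.21-fold from trough to peak, with the peak at 2.39 ± 0.91 h (adjusted p = 0.0280, limma).

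Gpr158, a class C receptor that binds glycine and pairs with an RGS protein at the membrane, ran from 8.05 (CT 40) through 8.46 to 8.61 (CT 24) in the first cycle. In the second it ran from 8.07 (CT 62) through 8.50 to 8.69 (CT 44). Here too the low values lay at the arrays of circadian times 14 and 16. The amplitude was 0.153 ± 0.040 (1.24-fold) with the peak at 1.67 ± 1.0 h (adjusted p = 0.0435, limma).

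Gpr4, a proton-sensing receptor of blood vessel walls and of neurons that sense acid, took the opposite course. It ran from 6.39 (CT 26) through 6.60 to 7.24 (CT 40) in the first cycle and from 6.36 (CT 50) through 6.66 to 6.86 (CT 42) in the second. Its lowest array was at circadian time 2 in both cycles and its highest at 16 and 18. The amplitude was 0.161 ± 0.040 (1.25-fold) with the peak at 15.4 ± 0.96 h (adjusted p = 0.0350, limma).

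**Figure D4:**
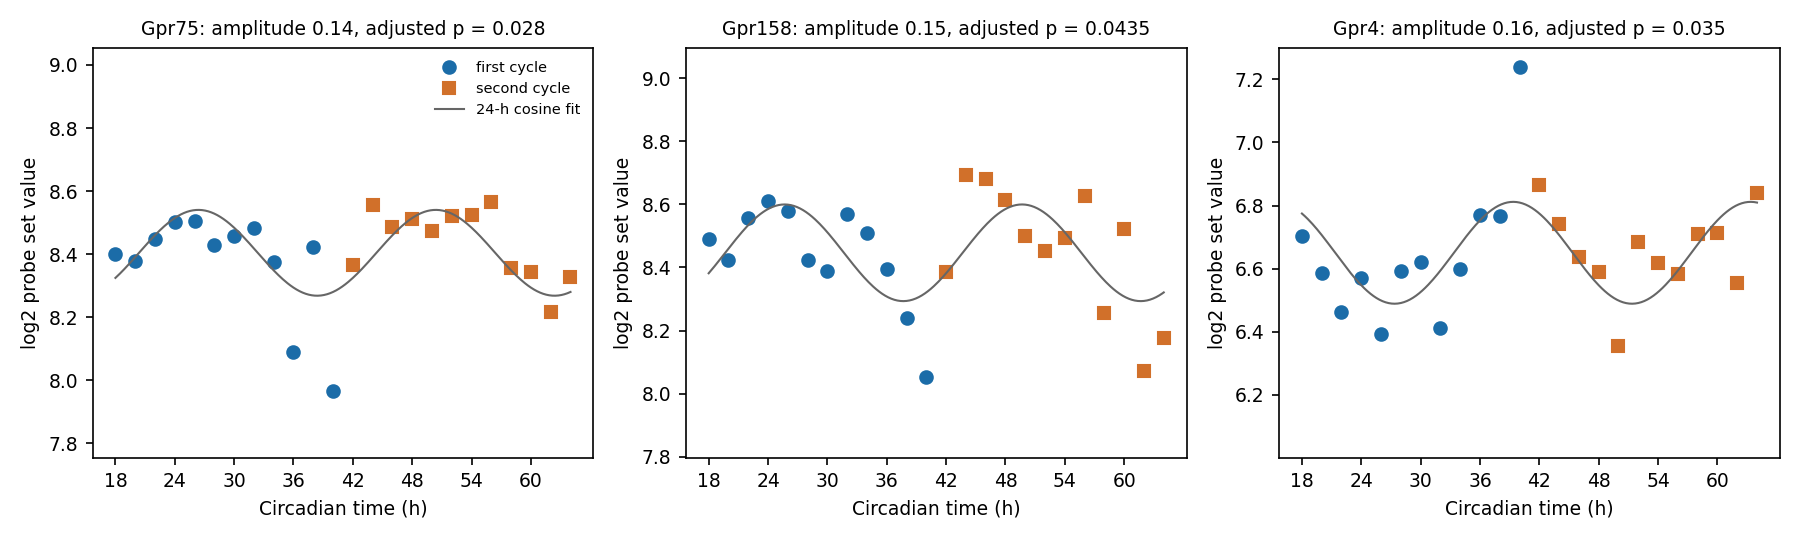
Log2 values of Gpr75, Gpr158 and Gpr4 on the 24 arrays against circadian time, with first-cycle arrays as circles, second-cycle arrays as squares and the fitted 24-h cosine as a line. Gpr75 and Gpr158 dip at CT 40 and CT 62, and Gpr4 is highest at CT 40.

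All 3 calls were lost in some fits and kept in others. With array weights the adjusted p in limma was 0.0322 for Gpr75, 0.0289 for Gpr4 and 0.0538 for Gpr158. After quantile normalisation it was 0.0411, 0.0436 and 0.052 in the same order. Without CT 40 alone it was 0.0331, 0.0497 and 0.0628. Without CT 40, CT 62 and CT 64, Gpr75 had an amplitude of 0.0982 (adjusted p = 0.104), Gpr158 of 0.0874 (0.216) and Gpr4 of 0.133 (0.0558). None of these passed, and Gpr19 was then the 1 Gpr gene called, with 4.87% of all tested genes called. With the mean of the background genes of each array as a covariate, the adjusted p rose to 0.228 for Gpr75, 0.454 for Gpr158 and 0.194 for Gpr4. Only Gpr37 was called in that fit, and 3.83% of all genes. Leaving out 1 array at a time, Gpr75 was called in 22 of 24 fits, Gpr4 in 20 and Gpr158 in 10, and without CT 36 alone the count of called Gpr genes was 0 (5.19% of all tested genes called). It was 1 without CT 42 (7.42%), CT 50 (5.27%) or CT 64 (5.52%), 5 without CT 44 (8.28%) and 7 without CT 30 (10.3%), so the share over all genes moved as well. Array background and time of day overlap at circadian times 14 and 16, and the part of each in these calls was not tested beyond these fits.

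The printed promoter windows of the called genes show what stands before their starts. The 250 bases of Gpr158 (chr2:21367317-21367566, plus strand) and of Gpr4 (chr7:19212288-19212537, plus strand) are shown whole, and 30 bases of Gpr75 (chr11:30885328-30885357, plus strand), with GC boxes on either strand in capitals. In none of the windows of these 3 genes were the letters of the E-box, the D-box, the cyclic AMP response element or its half-site, or the ROR element found.
Gpr158: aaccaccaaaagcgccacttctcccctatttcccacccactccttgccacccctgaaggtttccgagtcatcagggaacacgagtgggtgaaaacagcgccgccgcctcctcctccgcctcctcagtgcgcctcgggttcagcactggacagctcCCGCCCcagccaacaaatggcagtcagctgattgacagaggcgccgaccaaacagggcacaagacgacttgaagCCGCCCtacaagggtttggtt
Gpr4: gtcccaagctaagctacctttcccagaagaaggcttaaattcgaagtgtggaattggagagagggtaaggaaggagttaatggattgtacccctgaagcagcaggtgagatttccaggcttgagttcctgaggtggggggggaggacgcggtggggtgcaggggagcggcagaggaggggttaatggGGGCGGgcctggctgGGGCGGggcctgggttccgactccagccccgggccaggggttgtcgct
Gpr75: gggtgccgagcaggcgGGGCGGccacggtc

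Some Gpr genes of similar or larger amplitude did not pass the threshold. Gpr89, a Golgi pH regulator, had the largest amplitude among the tested Gpr genes, 0.182 ± 0.053 (adjusted p = 0.0684, peak 2.43 h). It was lowest at CT 40 (6.73) in the first cycle, against a median of 7.48, and lowest at CT 62 (7.21) in the second. Gpr101, a constitutively active receptor of hypothalamic neurons, had an amplitude of 0.130 ± 0.036 (adjusted p = 0.0555, peak 2.67 h). It ran from 8.63 (CT 40) to 9.30 (CT 26) in the first cycle and from 8.93 (CT 64) to 9.33 (CT 50) in the second. Gpr165 reached 0.163 ± 0.055 (adjusted p = 0.115). With CT 40, CT 62 and CT 64 left out, Gpr89, Gpr101 and Gpr165 were not called either. Of the 14 Gpr genes at an unadjusted p under 0.05, 10 had their fitted peak between 0 and 6 h and 4 between 12 and 18 h. Over the 52 tested Gpr genes, 19 had a fitted peak before 6 h, 10 from there to 12 h, 12 in the following 6 h and 11 after 18 h. Of all tested genes 38.2% had their fitted peak between 0 and 6 h and 27.6% between 12 and 18 h. Among all genes called for a 24-h rhythm these shares were 57.2% and 20.3%. The arrays with high background lie at circadian times 14 and 16, so their values weigh on these fitted peaks. The counts of peaks were not made without those arrays.

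By role, the lists of Gpr genes overlap in part, since a receptor can be both an immune and a lipid receptor. Of the 8 receptors known to raise cyclic AMP, 7 were tested and 0 called. Their median amplitude was 0.0441, from 0.00781 for Gpr3 to 0.130 for Gpr101. Of 7 Gi- or Gz-coupled receptors 6 were measured, 5 tested and 0 called, with a median of 0.0722. The 3 SREB receptors, a conserved brain family of Gpr27, Gpr85 and Gpr173, were all tested and 0 called (amplitudes 0.0238 to 0.0557).

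Of 4 proton-sensing receptors 3 were measured and 2 tested, and Gpr4 was called while Gpr132 had an amplitude of 0.0625 (adjusted p = 0.515). Of 3 class C receptors 2 were measured and tested, and Gpr158 was called while Gpr179 had 0.00469, the smallest amplitude of all tested Gpr genes. Of 17 neuronal orphans 16 were measured and 12 tested, and Gpr75 was called, with a median amplitude of 0.0859. Of 11 intracellular or atypical members 8 were tested and 0 called (median 0.0382). Both endothelin-receptor-like genes, Gpr37 and Gpr37l1, were tested and 0 called. Of 14 immune receptors 7 were tested (median 0.0656), and of 10 lipid or metabolite receptors 6 (median 0.0819), and 0 of either were called. The 10 Gpr genes in no role list had 7 tested, Gpr1, Gpr20, Gpr39, Gpr137b-ps, Gpr146, Gpr165 and Gpr182, and 0 called. The 0 called in these lists are limma counts at the adjusted threshold; over all 52 tested, 14 had an unadjusted p under 0.05.

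Of the 19 Gpr genes left out by the filter on low means, 0 were called when no filter was applied, with adjusted p from 0.180 (Gpr142) to 0.947 (Gpr50). Gpr137b and Gpr137b-ps, a transcribed pseudogene, have near-identical sequence, so their probe sets may share signal and are uncertain. Gpr31b, which also has a near copy, had 2 probe sets with means of 6.50 and 6.41.

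Levels between the cycles differed little. The second cycle was higher in 34 of the 52 tested Gpr genes and lower in 18, with a median difference of 0.0236 (all tested genes, 0.00310). In limma 0 Gpr genes were called, beside 0% of all tested genes. At an unadjusted p under 0.05 there were 3 Gpr genes, 5.77%, beside 8.71% of all tested genes. Gpr180 averaged 7.25 ± 0.064 (SD, n = 12) in the first cycle and 7.36 ± 0.065 in the second, a difference of 0.102 ± 0.034 (SE, adjusted p = 0.412). Its first-cycle values ran from 7.11 (CT 40) through 7.25 to 7.37 (CT 18) and its second-cycle values from 7.26 (CT 42) through 7.36 to 7.48 (CT 54), so the ranges overlapped. Gpr22 averaged 7.22 ± 0.15 and 7.10 ± 0.073 and was lower in the second cycle by a fitted -0.121 ± 0.049 (adjusted p = 0.499). Gpr108 averaged 7.90 ± 0.12 and 7.99 ± 0.088 (difference 0.0933 ± 0.045, adjusted p = 0.572).

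Markers of a neighbouring tissue, the pituitary, differed between arrays. Of 8 pituitary markers 7 were measured and 4 were above background. The mean of the 7 ran from 5.24 to 7.89 in the first cycle and from 5.08 to 5.99 in the second. The part of pituitary tissue in the differences between cycles was not tested. For a change in rhythm between the cycles 0 Gpr genes were called and 2 had an unadjusted p under 0.05 (limma, smallest adjusted p 1.0; 0% of all tested genes called). At that unadjusted limit the shares were 3.85% of the tested Gpr genes and 2.42% of all tested genes. The 3 Gpr genes with the smallest p in limma were Gpr183, an oxysterol receptor (unadjusted p = 0.0280), Gpr6 (0.0459) and Gpr27 (0.0578).

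For a 12-h rhythm 0 Gpr genes were called by limma, beside 0.0358% of all tested genes. At an unadjusted p under 0.05 there were 14 of 52, 26.9%, and 21.9% of all tested genes. The smallest adjusted p values belonged to Gpr20 (amplitude 0.140 ± 0.032, adjusted p = 0.0986), Gpr37l1 (0.166 ± 0.039, 0.103) and Gpr158 (0.134 ± 0.032, 0.107). Gpr20 was highest at CT 40 (6.51) in the first cycle and CT 64 (6.41) in the second, both arrays with high background. Gpr37l1 was lowest at CT 40 (8.20) and CT 62 (8.65). With CT 40, CT 62 and CT 64 left out, the 12-h amplitude was 0.111 for Gpr20 (adjusted p = 0.398), 0.107 for Gpr37l1 (0.422) and 0.0897 for Gpr158 (0.495). With array background as a covariate it was 0.100, 0.0655 and 0.0904.

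The spread of some Gpr genes followed markers of glia or vessels. The pairs were chosen after the data were seen, by the cell type each gene is known from, and 7 relations were computed over 24 arrays against the mean log2 value of a marker list that does not hold the gene. Each gene was set against its own list only, so no relation is shown to be particular to a cell type. The lists also moved together in part. In the first cycle the oligodendrocyte, astrocyte and endothelial means were all highest at CT 20 and lowest at CT 40. In the second cycle their highest arrays differed. Gpr37, known from myelinating oligodendrocytes, followed the 9 measured oligodendrocyte markers with Pearson r = 0.929 and Spearman rho = 0.941 (adjusted permutation p = 2.33e-05 and 3.5e-05). It ran from 7.49 (CT 28) through 7.84 to 8.27 (CT 36) in the first cycle and from 7.53 (CT 62) through 7.98 to 8.29 (CT 58) in the second. The relation was as close within the first cycle (0.927), within the second (0.952) and with CT 40, CT 62 and CT 64 left out (0.923). Without the 2 arrays farthest from the median of the markers r was 0.909. The marker mean itself ran from 8.75 to 9.84 in the first cycle and from 9.01 to 9.83 in the second. With that marker mean as a covariate of the 24-h fit, 14 of 52 Gpr genes were called, Gpr19 among them and Gpr37 and Gpr176 not, beside 24.4% of all tested genes.

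Gpr182, a scavenger of chemokines on endothelial cells, followed the endothelial markers with r = 0.831 and rho = 0.828 (adjusted permutation p = 2.33e-05 and 3.5e-05). It ran from 5.40 (CT 26) through 5.90 to 6.37 (CT 20) in the first cycle and from 5.61 (CT 44) through 6.08 to 6.44 (CT 58) in the second, so many values lay near the background limit. Its r was 0.937 within the first cycle, 0.705 within the second and 0.851 without the 2 farthest arrays. Gpr4, the other vascular gene, had r = 0.0412 and rho = 0.210 with the same markers (adjusted permutation p = 0.853 and 0.410), and r = 0.491 without CT 40, CT 62 and CT 64.

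Gpr37l1, known from astrocytes, followed the 10 astrocyte markers with r = 0.868 and rho = 0.717 (adjusted permutation p = 2.33e-05 and 0.000257). That value rested in part on the arrays at CT 40 and CT 62, without which r was 0.666; within the cycles it was 0.899 and 0.831, and without CT 40, CT 62 and CT 64 it was 0.627. Gpr17, a receptor of oligodendrocyte precursors, had r = 0.547 and rho = 0.558 with the precursor markers (adjusted permutation p = 0.00969 and 0.00971), with 0.578 and 0.380 within the cycles and 0.463 without the 2 farthest arrays. For the microglial receptors the relation was weak, with r = 0.161 and rho = 0.198 for Gpr34 (adjusted permutation p = 0.527 and 0.410) and r = 0.253 and rho = 0.138 for Gpr183 (0.328 and 0.518). The smallest unadjusted p that the permutations can give was 1e-05.

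**Figure D5:**
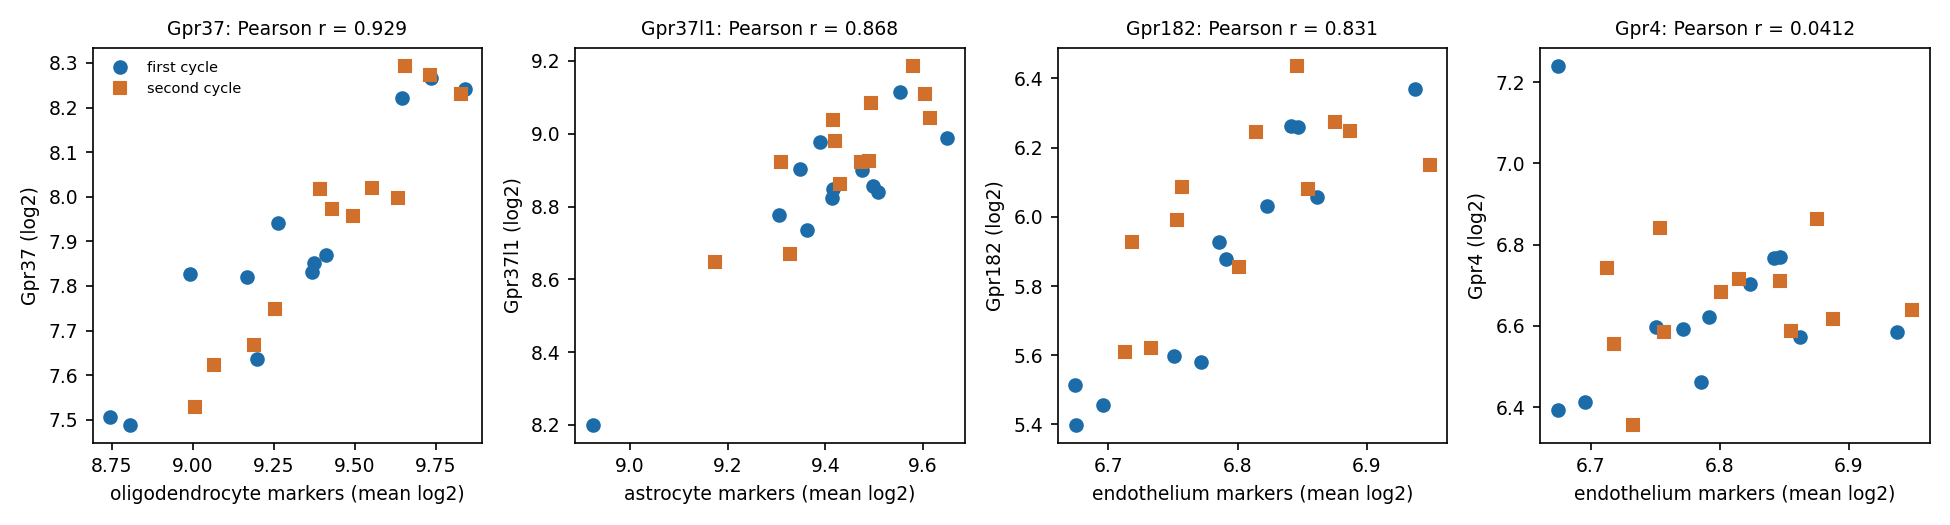
Log2 values of Gpr37, Gpr37l1, Gpr182 and Gpr4 on the 24 arrays against the mean log2 value of the oligodendrocyte, astrocyte and endothelial marker lists, with first-cycle arrays as circles and second-cycle arrays as squares. Gpr37 rises with its markers (r = 0.929) in both cycles. Gpr4 does not follow the endothelial markers over all 24 arrays (r = 0.0412), but r is 0.491 without CT 40, CT 62 and CT 64.

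The partners of these receptors were taken from a list of 36 gene symbols of G proteins, receptor kinases and arrestins. Grk2 and Grk3 stand in it also under their older symbols, Adrbk1 and Adrbk2. Of the 36 symbols 32 were measured and 30 tested, and 5 were called for a 24-h rhythm, 16.7% beside the 7.65% of all tested genes. The median amplitude was 0.0751. That count was 2 of 30 with CT 40, CT 62 and CT 64 left out, beside 4.87% of all tested genes. It was also 2 without CT 18 (6.52%), CT 28 (5.04%) or CT 64 (5.52%) alone. Without CT 22 (5.82%), CT 48 (5.69%), CT 50 (5.27%), CT 54 (5.84%) or CT 60 (5.85%) it was 3, and without CT 30 (10.3%) it was 7. With array background as a covariate the count was 4 (3.83%), and with array weights 6 (11.2%). Of 15 beta and gamma subunits 4 were called. Gng8, a gamma subunit, reached 0.364 ± 0.050 and peaked at 13.5 h (adjusted p = 0.000186). Gng5 had 0.165 ± 0.042 (peak near 16 h, adjusted p = 0.0357), Gnb4 0.118 ± 0.029 (peak 5.22 h, 0.0306) and Gnb1 0.121 ± 0.031 (peak 2.69 h, 0.0399). Of the kinases and arrestins 5 were tested and Grk5 was called, with 0.167 ± 0.042 and a peak at 20.1 h (adjusted p = 0.0360). Of 10 tested alpha subunits 0 were called. Gnaz, the alpha subunit through which Gpr176 is known to act, had an amplitude of 0.0191 ± 0.030 (adjusted p = 0.884). Between the cycles 0 of these 30 genes were called.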

How the data were processed

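The authors deposited log2 intensities of 35556 probe sets on 24 Affymetrix arrays, made by RMA (version 1.3.1.187) in Affymetrix Expression Console per the submitters' processing notes. Background and summarisation settings are not given in the sources used here. RMA puts arrays on a shared scale, so a shift common to all genes of an array is largely removed, but the deposited values still differed in spread (interquartile range 2.48 to 2.90). The platform annotation gave 21789 probe sets 1 symbol, 1621 several and 12146 none. Genes with a mean under the 30th percentile (5.52) were left out and 13956 were tested with limma 3.58.1 in R 4.3.3. Time entered as cosine and sine terms, with cycle, interaction or 12-h terms added. Fits were tested on simulated data. Other steps used Python 3.11.15, NumPy 2.4.6, pandas 2.3.3, SciPy 1.17.1 and matplotlib 3.10.9.

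The text names Gpr176, Gpr19, the called Gpr genes, or the 3 of smallest p in a comparison with none called. It also names up to 6 called partner genes, the 5 genes most like Gpr176 and Gpr19 and the 4 genes on each side of the background limit. Gpr37, Gpr37l1, Gpr182, Gpr17, Gpr50, Gpr89, Gpr101 and Gpr165 were named after their values were seen. The members, lists and tests were chosen with earlier results of these data known. Alternatives covered filters, normalisation, covariates, weights, ranks and left-out arrays.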

Additional observations from a re-analysis of the deposited data

How the results depend on the processing

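The count of 24-h rhythmic Gpr genes, 3 of 52, was 1 of 71 without a filter (4.0% of all tested genes called), 5 of 31 with a filter at the 50th percentile (12.4%) and 5 after median centring (7.51%). It was 1 with array background as a covariate (3.83%), 14 with the oligodendrocyte marker mean as a covariate (24.4%), 1 without CT 40, CT 62 and CT 64 (4.87%) and 0 at an adjusted p under 0.01. Leaving out 1 array at a time gave 0 to 7, with 5.04% to 10.3% of all tested genes. Gpr19 was called after median centring (amplitude 0.114, adjusted p = 0.0437), with the oligodendrocyte covariate (0.0996, 0.0480), with array weights (0.0985, 0.0454) and without the 3 arrays (0.125, 0.0490). Gpr176 was called in none of the fits run. In the same fits 2 partner genes were called without a filter, 3 after median centring, 10 with the oligodendrocyte covariate, 2 without the 3 arrays, 3 with linear time as a covariate (6.43% of all tested genes) and 1 at an adjusted p under 0.01, and 2 to 7 when single arrays were left out. Partner genes called numbered 7 with a filter at the 50th percentile, 4 with array background as a covariate and 6 with array weights (11.2% of all tested genes). The causes were not tested. The counts of 0 for the cycle, change in rhythm and 12-h comparisons stayed 0 in all fits run. The count above background was 35 to 52 under other limits. Blocking on circadian time, which pairs the cycles, left the count between cycles at 0; the labels give no replicate numbers. With 1 pooled array per time, amplitudes near 0.1 lie close to the error.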
